A study of Mus musculus with 8 samples.

Results

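The genes of the Hox, Dlx, Meis and Pbx families were followed in cultured palate cells of the mouse embryo. Members were the genes whose platform symbol is a Hox gene of cluster a to d or a numbered Dlx, Meis or Pbx gene, and 47 of 17711 genes with a named probe met this rule, carried by 76 of 46632 probes. They comprised 37 Hox, 5 Dlx, 2 Meis and 3 Pbx genes. The cells were primary MEP (mouse embryonic palate) cells from the palatal shelves of CBA;C57BL6 N2 embryos at E13.5, studied at passage 1. The induced group received pre-clustered ephrin-B1-Fc, a ligand of Eph receptors, at 2 ug/ml for 60 min, and the uninduced group is labelled a control induction; whether it received the clustering reagent alone is not stated. Each group had 4 Illumina bead arrays, numbered 1 to 4. Replicate 1 of both groups shared slide 1, replicate 2 of both slide 2, and replicates 3 and 4 of both slide 3. Separate cultures are not named in the labels, and p-values therefore measure the spread between arrays. In the paired fit this is the spread of the induced minus uninduced differences among the 4 numbered pairs.

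These genes encode homeodomain transcription factors that give cells a position along the body. Hox genes lie in clusters, and their order in a cluster follows the order of their domains from hindbrain to tail. Neural crest cells of the first pharyngeal arch, which builds the jaws and the palate, are known as a Hox-negative population, whereas crest of the second arch expresses Hoxa2. Within the first arch, position from the upper to the lower jaw is set by nested Dlx genes: Dlx1 and Dlx2 span both jaws, and Dlx5 and Dlx6 mark the lower one. Meis and Pbx proteins, homeodomain factors of the TALE class, bind DNA together with Hox proteins and also act without them in the face.

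The Hox clusters were at or near background in both groups. On each array a probe counted as detected when its detection p, computed from the negative control beads on it, was under 0.05, and the lowest signal that counted as detected lay between 83.7 and 91.4. Of the 37 Hox genes, 29 (78.4%) were detected on none of the 8 arrays by any probe, 5 on 1 to 7 arrays and 3 (8.1%) on all 8. Over all 17711 genes, 40.7% were detected on no array, 12.2% on 1 to 7 arrays and 47.1% on all 8. A gene below the limit is not shown to be absent, since in bulk RNA fewer cells of a type and less RNA per cell cannot be told apart, and a low transcript may stay under the background of its probe.

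None of the 17 probes for the 9 Hoxa genes, and none of the 10 probes for the 9 Hoxd genes, was detected on any array. Hoxa2, the selector gene of the second arch, had a signal of 58.4, 52.9, 61.0 and 52.6 in uninduced replicates 1 to 4 and of 48.8, 64.4, 62.7 and 59.2 in induced replicates 1 to 4. All 8 values lay below the limit of their array and the groups overlapped. The 15 posterior Hox genes (groups 9 to 13, which pattern the lower trunk and the limbs) were detected on no array through any of their 21 probes, whose signals ran from 41.2 to 88.7.

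**Figure D1:**
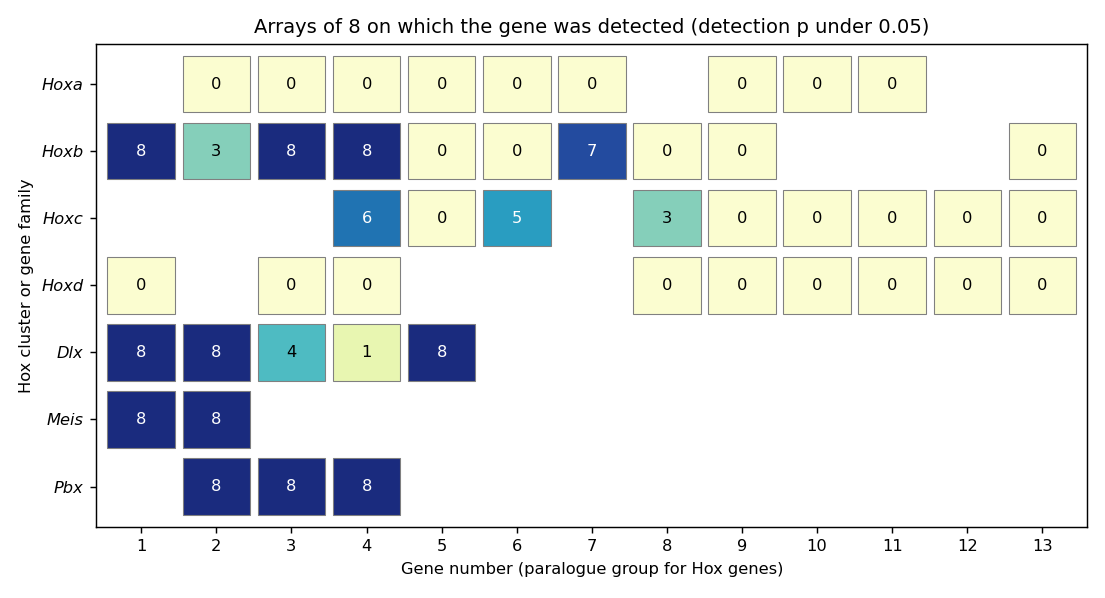
Each tile is a member and the number in it is how many of the 8 arrays detected its best probe at a detection p under 0.05; columns are the gene number, which for Hox genes is the paralogue group, rows are the Hox clusters and the other families, and blank places hold no member. All Hoxa and Hoxd tiles are at 0, whereas Dlx1, Dlx2, Dlx5, Meis1, Meis2, Pbx2, Pbx3 and Pbx4 are at 8.

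The 8 Hox genes detected on at least 1 array lay in the Hoxb and Hoxc clusters and belonged to groups 1 to 8. Of the 37 Hox genes, 5 were detected on only 1 to 7 arrays, where 12.2% of all genes were. Whether the place of the 8 genes in the clusters differs from chance was not tested. Hoxb1, Hoxb3 and Hoxb4 were detected on all 8 arrays, Hoxb7 on 7, Hoxc4 on 6, Hoxc6 on 5, and Hoxb2 and Hoxc8 on 3 each. Their signals were close to the limit: over the 10 Hox probes detected anywhere, the ratio of signal to the limit of the same array ranged from 0.71 to 1.72. Hoxb1, known from the hindbrain, had 128.1, 116.7, 114.2 and 107.9 in uninduced and 115.8, 105.2, 113.0 and 106.1 in induced replicates 1 to 4. Hoxb4, of the posterior hindbrain and neck, had 140.6, 140.9, 141.4 and 123.7 in uninduced and 138.0, 137.6, 154.5 and 133.1 in induced replicates. For both genes the groups overlapped. At a detection p under 0.01 Hoxb4 alone among the Hox genes stayed detected on all 8 arrays, Hoxb1 was detected on 3, and the other 35 on none. At that threshold 40.1% of all genes were detected on all 8 arrays. Hoxb7, Hoxc4, Hoxc6 and Hoxc8 each had another probe, which was detected on 1, 2, 0 and 0 arrays, and the other Hoxb3 probe was detected on none. Whether these low signals are Hox transcripts or cross-hybridisation of single probes was not tested.

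Transcripts of the Dlx pair that spans both jaws were well above background. Dlx1 had signals of 679.4, 461.0, 836.3 and 782.5 in uninduced replicates 1 to 4 and of 651.1, 537.8, 897.4 and 765.6 in induced replicates 1 to 4. The brighter Dlx2 probe gave 2103.9, 1562.0, 2304.8 and 1958.7 in uninduced and 2003.7, 1577.6, 2445.0 and 1979.2 in induced replicates. On this unnormalized scale replicate 2 was the lowest of each group and replicate 3 the highest for both genes, and the groups overlapped. A dimmer Dlx2 probe was also detected on all 8 arrays, at 139.1 to 192.8. Dlx5, of the lower jaw, was detected on all 8 arrays by a probe at 101.3 to 115.5, which is 1.12 to 1.35 times the limit, and on 1 array by its other probe. At a detection p under 0.01 Dlx5 was detected on 1 array. Dlx3 and Dlx4, known from the distal arches and from surface ectoderm and its derivatives, were at or below the limit. Dlx3 was detected on 2 arrays of each group (75.0 to 113.3) and Dlx4 on 1 uninduced array by its brighter probe (79.5 to 88.9). The other Dlx4 probe was detected on no array, at 57.7 to 70.3.

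The TALE cofactors were detected on all 8 arrays through at least 1 probe of each gene. Meis1 had 407.8, 350.5, 512.3 and 536.8 in uninduced and 380.8, 383.6, 549.4 and 483.6 in induced replicates 1 to 4. In both groups the replicates on slide 3 were the higher ones on this unnormalized scale. Meis2, whose loss from neural crest gives a cleft palate in mice, had 436.4, 437.3, 430.7 and 519.7 in uninduced and 406.6, 470.9, 447.5 and 450.9 in induced replicates. By these probes the groups overlapped for both Meis genes. Each Meis gene had 4 probes, and only the brightest of each was detected on all 8 arrays. Of the others, a Meis1 probe was detected on 2 arrays, a Meis2 probe on 5 and the remaining 4 on none.

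Pbx proteins are the partners with which Meis and Hox factors share DNA. Pbx2 had 220.1, 178.1, 234.1 and 213.5 in uninduced and 198.1, 174.5, 250.8 and 222.8 in induced replicates 1 to 4. Pbx3 lay between 163.1 and 214.2 over the 8 arrays. Before normalization replicate 2 was the lowest array of each group for both genes, and the groups overlapped. Pbx4 was near the limit, at 93.7 to 113.7, and was detected on no array at a detection p under 0.01. Of the other Pbx probes, 1 for Pbx2 was detected on 4 arrays, 1 for Pbx3 on 5, and the remaining 3 (1 for Pbx3 and 2 for Pbx4) on none. Of the 10 Dlx, Meis and Pbx genes together, 8 were detected on all 8 arrays and none on no array, and 6 stayed detected on all 8 at a detection p under 0.01. Over all 17711 genes 47.1% were detected on all 8 arrays, and 40.1% at a detection p under 0.01. Levels are not compared between genes, because probes differ in brightness.

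**Figure D2:**
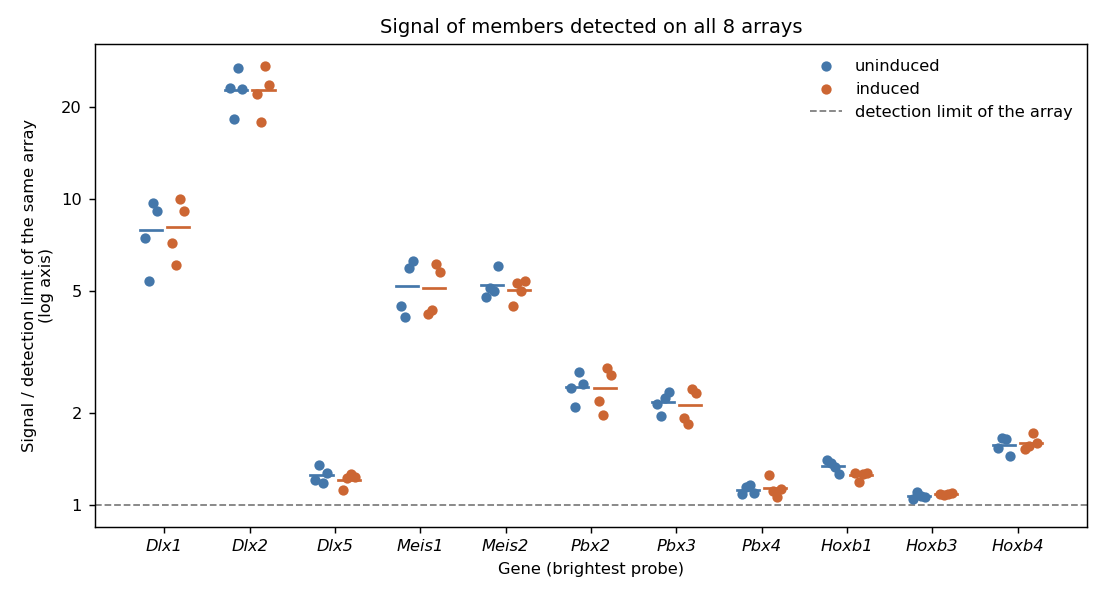
Deposited signal of the brightest probe of each member detected on all 8 arrays, divided by the lowest detected signal of the same array (log axis, dashed line at 1); points are arrays, short lines are group means of 4. Dlx2 lay at 17.8 to 27.3 times the limit and Hoxb3 at 1.04 to 1.10 times, and the groups overlap for every gene; heights are not comparable between genes.

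Promoter CpG content was compared between detected and undetected members, with no test. RefSeq promoters (build GRCm38.p6) were given for 27 of the 47 members, as 29 start sites, and the 250 bases before each start were used. The median ratio of observed to expected CpG was 0.71 for the members' promoters. It was 0.37 over the 32841 promoters kept for comparison, called all promoters below. Some chromosomes, and entries with unread bases or of another length, had been left out of that set. The median ratio was 0.73 over the 8 promoters of members detected on all 8 arrays and 0.72 over the 20 of members detected on none. Shown are Dlx1 and Dlx2, neighbours on chromosome 2 that were both detected on all 8 arrays, beside Hoxa5 and Hoxa2, which were detected on none. Capitals mark CG dinucleotides, and each sequence runs 5′ to 3′ on the strand of the gene. The Dlx1 window is chr2:71529195-71529444 on the plus strand with 22 CpGs, and the Dlx2 window is chr2:71546755-71547004 on the minus strand with 24. The Hoxa5 window is chr6:52204588-52204837 on the minus strand with 28 CpGs, and the Hoxa2 window is chr6:52164832-52165081 on the minus strand with 6.
Dlx1: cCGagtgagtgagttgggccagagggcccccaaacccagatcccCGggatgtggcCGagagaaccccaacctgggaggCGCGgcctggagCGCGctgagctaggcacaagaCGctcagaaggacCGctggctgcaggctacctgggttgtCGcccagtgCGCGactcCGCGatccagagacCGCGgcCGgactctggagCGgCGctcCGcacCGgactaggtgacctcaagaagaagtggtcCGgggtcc
Dlx2: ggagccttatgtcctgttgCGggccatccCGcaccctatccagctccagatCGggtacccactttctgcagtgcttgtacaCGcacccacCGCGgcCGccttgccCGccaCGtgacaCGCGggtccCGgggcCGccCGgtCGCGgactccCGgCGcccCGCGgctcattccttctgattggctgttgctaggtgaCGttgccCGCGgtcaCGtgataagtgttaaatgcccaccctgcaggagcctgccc
Hoxa5: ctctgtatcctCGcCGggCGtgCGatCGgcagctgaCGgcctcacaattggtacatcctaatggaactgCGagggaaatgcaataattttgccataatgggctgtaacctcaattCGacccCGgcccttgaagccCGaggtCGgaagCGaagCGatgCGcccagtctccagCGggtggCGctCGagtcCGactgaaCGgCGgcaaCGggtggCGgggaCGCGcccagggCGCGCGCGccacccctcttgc
Hoxa2: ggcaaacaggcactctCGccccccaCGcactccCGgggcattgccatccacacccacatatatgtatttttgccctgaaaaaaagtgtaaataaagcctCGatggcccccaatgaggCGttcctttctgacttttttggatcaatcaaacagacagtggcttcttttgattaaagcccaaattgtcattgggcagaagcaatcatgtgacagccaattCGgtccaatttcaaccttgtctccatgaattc
The undetected Hoxa5 thus had at least as many CpGs in its window as the detected Dlx1 and Dlx2, and Hoxa2 had fewer.

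The same windows were searched on both strands for 3 binding motifs of these families. TGATNNAT, bound by Pbx and Hox together, was in 4 of the 29 member promoters (Hoxa2, Hoxb1, Hoxb8 and 1 of the 2 Hoxd11 starts) and in 7.7% of all promoters. TGACAG, the Meis motif, was in 2 (Hoxa2 and Hoxa3) and in 15.9% of all promoters, and TAATTA, a homeodomain motif, was in both Hoxd11 starts and in 4.8% of all. The Hoxa2 window held the first pair of motifs and none of the 6 Dlx, Meis and Pbx windows held any of the 3. A match is a stretch of letters, not a bound site.

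Induction with ephrin-B1 for 60 min was compared with the control induction to ask whether any of these factors responds early to Eph receptor signaling. None of the members that could be tested passed the test. After background correction and quantile normalization, 15 members (9 Dlx, Meis and Pbx genes and 6 Hox genes) were detected on at least 4 of the 8 arrays and were tested among 9396 genes, with limma and the replicate number as a block. Of these 15, 0 were called at an adjusted p under 0.05, where 0.575% of all genes tested were called (7 higher, 0.0745%, and 47 lower, 0.5%). Even at an unadjusted p under 0.05, 0 of the 15 passed, where 8.73% of all genes did. Without the block 0 members and 3 genes (0.0319%) were called, and 0 members and 1.27% of genes had an unadjusted p under 0.05; with the slide as a block 0 members and 15 genes (0.16%) were called. By the brightest kept probe, the 4 induced and the 4 uninduced arrays did not separate for any of the 15 members, and they did so for 1.2% of all genes. With 15 members, 0 cannot be told apart from these shares of all genes. Before normalization, probes of Hoxb7 and Meis2 that the filter left out did separate, with induced arrays higher. The Hoxb7 probe had 64.0 to 67.0 in uninduced and 67.6 to 93.8 in induced arrays and was detected on 1. The Meis2 probe had 51.9 to 58.6 and 61.0 to 71.5 and was detected on none. The share of all probes that separate on this scale was not counted. The filter passed low members such as Dlx3 and Hoxc6 through the arrays on which they were bright, so the 15 are not a sample of all 47. With no filter all 47 members were tested among 17711 genes, and 0 members and 51 genes were called; of the 32 that the filter had left out, 29 were detected on no array.

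For the 4 brightly measured genes of the Dlx and Meis families the intervals were narrow. On the normalized log2 scale Dlx1 averaged 9.30 ± 0.18 (SD, n = 4) without and 9.34 ± 0.12 (SD, n = 4) with ephrin-B1, a log2 difference of 0.04 (SE 0.0581, 95% interval -0.09 to 0.16, adjusted p = 0.906, higher in 3 of 4 pairs). Dlx2 went from 10.92 ± 0.12 to 10.91 ± 0.10, a difference of -0.01 (95% interval -0.12 to 0.09, adjusted p = 0.968). Its dimmer probe gave -0.10 (SE 0.115).
Meis1 had 8.64 ± 0.11 and 8.61 ± 0.11, with a difference of -0.03 (95% interval -0.17 to 0.10, adjusted p = 0.931). Meis2 had 8.68 ± 0.22 and 8.62 ± 0.25, with a difference of -0.06 (95% interval -0.20 to 0.07, adjusted p = 0.84). Meis2 was lower in 4 of 4 pairs, by 0.04, 0.01, 0.05 and 0.16 in pairs 1 to 4. It was the only 1 of the 15 members with the same sign in all 4 pairs, where 7.57% of all genes were higher and 8.38% lower in all 4. Its second kept probe was also lower in 4 of 4 pairs (-0.15, SE 0.114, adjusted p over all kept probes = 0.813). That probe lay near the limit, at 76.4 to 95.1, and was detected on 5 arrays. Another Meis2 probe, detected on no array, went the other way: its unnormalized signal was higher on every induced than on every uninduced array.

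Pbx2 and Pbx3 differed by -0.04 (95% interval -0.23 to 0.15, adjusted p = 0.934) and -0.07 (95% interval -0.26 to 0.12, adjusted p = 0.89). For both genes the pairs on slides 1 and 2 were lower and the pairs on slide 3 higher in induced cells, by -0.15, -0.19, 0.03 and 0.15 for Pbx2 and by -0.19, -0.20, 0.09 and 0.02 for Pbx3. The 2 kept Pbx2 probes disagreed: the dimmer one, detected on 1 uninduced and 3 induced arrays, gave 0.39 (SE 0.169, adjusted p over all kept probes = 0.616). The second Pbx3 probe gave 0.0059 (SE 0.13). Pbx4 differed by 0.03 (95% interval -0.24 to 0.31, adjusted p = 0.972).

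The members near the limit had wider intervals. Hoxb1 had the smallest p of the 15, with 6.06 ± 0.32 in uninduced and 5.84 ± 0.15 in induced cells, a difference of -0.22 (SE 0.115, 95% interval -0.46 to 0.03, adjusted p = 0.651), lower in 3 of 4 pairs. Hoxb4 differed by 0.01 (95% interval -0.21 to 0.24, adjusted p = 0.989). The other 4 tested Hox genes, Hoxb3, Hoxb7, Hoxc4 and Hoxc6, differed by 0.04, -0.18, 0.06 and 0.14, with adjusted p ranging from 0.772 to 0.959. Dlx3, near the limit, differed by 0.20 (95% interval -0.09 to 0.50, adjusted p = 0.742) and Dlx5 by -0.13 (95% interval -0.38 to 0.12, adjusted p = 0.816). Over the 15 members 7 differences were above and 8 below 0, with a median of -0.0139, beside -0.00143 over all 9396 genes.

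**Figure D3:**
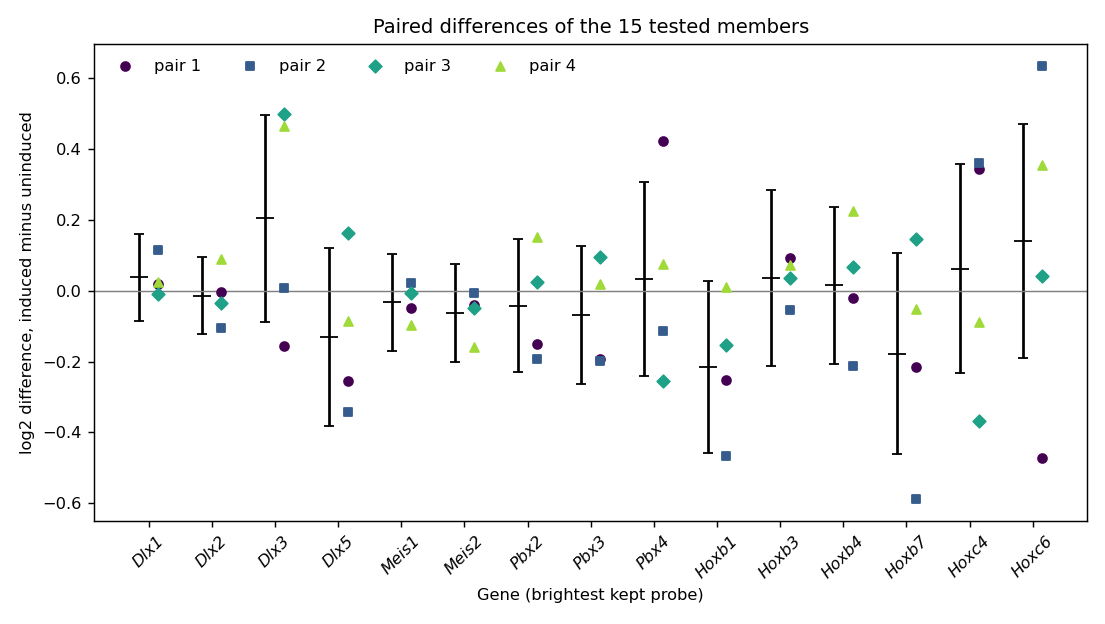
Log2 difference of induced minus uninduced cells for the 15 tested members; the black bar is the limma estimate with its 95% interval and the 4 symbols are the numbered pairs. All 15 intervals include 0, from Dlx2 (-0.12 to 0.09) to Hoxc6 (-0.19 to 0.47).

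The members were also compared between the numbered pairs of arrays. An F test over the replicate numbers in the same limma fit called 4 of the 15 members (26.7%), where 46.6% of all genes tested were called. Meis2 had the smallest p, with means of 8.60, 8.97, 8.41 and 8.61 for replicates 1 to 4, a range of 0.55 on the log2 scale (adjusted p = 0.00112). Dlx1 had means of 9.32, 9.12, 9.47 and 9.36, a range of 0.36 (adjusted p = 0.0129). Hoxb4 had means of 6.49, 6.76, 6.41 and 6.12, a range of 0.64 (adjusted p = 0.0153). Meis2 and Hoxb4 were thus highest and Dlx1 lowest in replicate 2. Dlx2 passed narrowly, with 11.03, 10.86, 10.99 and 10.80 (range 0.22, adjusted p = 0.0493). Probes of a gene differed in this test. In the fit over all kept probes the dimmer Pbx3 probe was called (range 1.06, adjusted p = 0.00166), whereas the brightest Pbx3 probe was not (range 0.12, adjusted p = 0.852). In that fit Meis2 was called by its brightest probe (adjusted p = 0.0018) and not by its other one (0.213), and neither Dlx2 probe was called (0.0571 and 0.88). With the mean of the kept probes in place of the brightest, Meis2 was not called (adjusted p = 0.809).

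Which members passed depended on the scaling. With median scaling 6222 in place of 4382 genes were called, and 4 members again, but these were Dlx1 (adjusted p = 2.27e-10), Dlx2 (6.64e-06), Meis1 (4.55e-06) and Pbx2 (0.00429). Meis2 (adjusted p = 0.248) and Hoxb4 (0.43) were then not called. Slide and replicate number cannot be told apart, except for replicates 3 and 4, which shared slide 3. Between these, 0 of the 15 members were called, where 3.21% of all genes were called higher and 2.95% lower in replicate 4. The differences of replicate 4 minus replicate 3 were 0.20 for Meis2 (adjusted p = 0.242), -0.11 for Dlx1 (0.492), -0.29 for Hoxb4 (0.299) and -0.18 for Dlx2 (0.163).

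**Figure D4:**
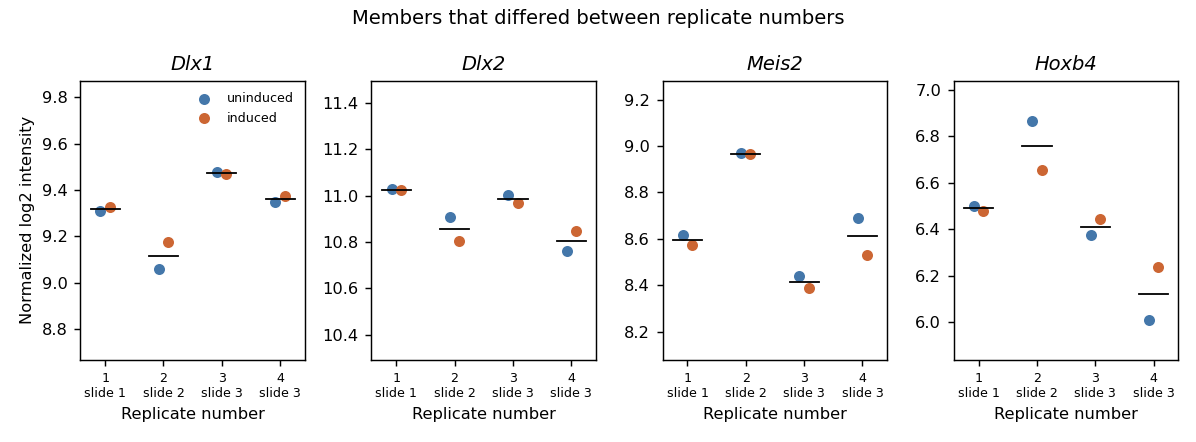
Normalized log2 intensity of the 4 members called between replicate numbers, by replicate number and slide; points are arrays (blue uninduced, orange induced), black lines are the mean of each pair, and every panel spans the same height on the log2 scale. Meis2 stands at 8.97 in replicate 2 and 8.41 in replicate 3, with gaps between the induced and uninduced array of a number of 0.01 to 0.16; for Hoxb4 such gaps reach 0.23 and for Dlx2 0.11, beside ranges of 0.64 and 0.22.

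Related genes were read from lists chosen with earlier results of these data known. Of 6 tested TALE relatives (of 11 listed), 13 regulators of Hox chromatin of the Polycomb and trithorax groups (of 21), 9 genes of the retinoic acid pathway (of 21) and 15 jaw and arch patterning factors (of 29), 0 were called higher and 0 lower. Their median log2 differences were -0.05, 0.0080, 0.06 and 0.09. The genes with the smallest p were Tgif1 (-0.15) and Irx5 (0.20) of the TALE class, the Polycomb genes Phc2 (-0.17) and Cbx8 (0.29), Cyp26b1 (0.16) and Aldh1a3 (0.17), which degrade and make retinoic acid, and Gsc (0.27) and Barx1 (0.10), homeobox genes of the arches. Their adjusted p ranged from 0.2 for Phc2 to 0.696 for Barx1.

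Markers were checked against the label of the cells. Of 13 palatal mesenchyme markers with a probe, 11 were detected on all 8 arrays, among them Osr2, Shox2 and Msx1, while Pax9 and Tbx22 were detected on none. Osr2 and Shox2 had the smallest p of that list (0.25, adjusted p = 0.0885, and 0.14, adjusted p = 0.496). Markers of other cell types were in part detected. Of 10 epithelial markers 3 (Krt8, Krt17 and Krt18, the last at 340.2 to 489.3) were detected on all 8 arrays and 5 on none, Epcam, Krt5 and Trp63 among them. Of 6 endothelial markers 1 (Kdr, at 104.2 to 173.2) was detected on all 8 and 3 on none, Pecam1 and Cdh5 among them. Of 8 macrophage markers with a probe 2 (C1qb and C1qc) were detected on all 8 and 1, Ptprc, on none. Of 7 muscle markers Acta1 (580.5 to 1391.7) and Actc1 (410.4 to 1717.6 by its brighter probe) were detected on all 8 and 4 on none, Myod1 among them. Of 4 neural and glial markers with a probe 3 (Stmn2 at 514.8 to 894.4, Tubb3 and Elavl4) were detected on all 8 and 0 on none. The summed signal of each of these lists overlapped between the groups. Among 8 limb and trunk mesoderm markers with a probe, 3 (Meox1, Meox2 and Tbx5) were detected on all 8 arrays. By their best probe, Tbx18 was detected on none, Tbx4 and Pax1 on 1, Uncx on 3 and Tbx15 on 4. Which tissue these transcripts came from was not tested. The summed signal of the list was 1007.5 to 1285.1 in uninduced and 1016.7 to 1377.4 in induced arrays. Of marker lists other than mesenchyme, Lyz2 and Actc1 differed between replicate numbers by up to 2.41 and 1.83 on the log2 scale (adjusted p = 3.14e-07 and 5.25e-10), beside the ranges of Meis2, Dlx1, Hoxb4 and Dlx2 above. The part of such cells in those differences was not tested. The Lyz2 probe, at 72.4 to 225.6, was detected on only 5 arrays, so its range includes arrays at background, and its other probes were detected on none. In all 11 other lists 0 genes were called between induced and uninduced cells.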

How the data were processed

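Total RNA from 8 samples was hybridised to single-channel bead arrays after column extraction and biotin labelling, per the labels' protocols, and exported from GenomeStudio 1.6.0, per the submitters' processing notes. Per the file headers, the deposited intensity is the average bead signal of a probe, not normalized between arrays (median 69.6 to 75.9), beside a detection p-value per probe. A matrix of intensity values processed by the authors, which holds values below 0 and has a median of 4.4 on every array, served as an alternative; its method is not given in the sources used here. Of 46632 probes, 29976 named 1 gene, 10 several and 16646 none, and 11 repeated identifiers were averaged. Between 32.8% and 37.2% of probes were detected per array. The number of arrays limits the precision.

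Signals were processed with neqc (normexp background correction from detection p-values, offset 16, quantile normalization, log2) in limma 3.58.1 under R 4.3.3. Probes detected on at least 4 of 8 arrays were kept (16514), and the brightest stood for its gene. Two-sided tests used lmFit and eBayes (trend on), and p-values were adjusted by Benjamini-Hochberg over 9396 genes; replicate number was a fixed effect, since the comparison was defined as paired. The numbers pair the arrays: after subtracting group means, same-numbered arrays correlated across genes at 0.591 to 0.716 (limit 0.1), and others at -0.538 to 0.3. Every member could be named; of other lists, called genes and the 2 with the smallest p. Osr2 and other markers outside that rule were named after their values were seen. Members and lists were chosen with earlier results of these data known. The scripts were tested on simulated data. Alternatives covered the block, background correction, scaling, the authors' matrix, filters, variance trend, probe choice, each replicate and each slide.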

Additional observations from a re-analysis of the deposited data

How the results depend on the processing

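No member was called between induced and uninduced cells in the paired fit or under any of the 16 alternatives (232 values of tested members), and 19 of these values, all uncalled, had the opposite sign of the paired fit, most of them on slide 3 alone or without replicate 2. The count of all genes called, 54 with the replicate block, was 3 with no replicate block, 15 with the slide block, 13 without the variance trend and 35 to 45 without 1 replicate. The block changed no call of a member. The 11 members detected on all 8 arrays became 7 at a detection p under 0.01, which dropped Dlx5, Pbx4, Hoxb1 and Hoxb3. The share of all genes detected on all 8 arrays went from 47.1% to 40.1%. The 4 members called between replicate numbers became 2 with no filter and 1 to 4 without 1 replicate; without replicate 2 Dlx2 alone was called, and without replicates 3 or 4, 2 were. Dlx2 passed under 3 of 12 alternatives, Hoxb4 under 8, Dlx1 and Meis2 under 9 each. Between replicates 4 and 3, 579 genes were called, and 374 with no filter, 188 without the variance trend and 479 to 662 without 1 replicate. The cause of these shifts was not tested. Signals near background limit what can be said of Hox genes, Dlx3, Dlx4, Dlx5 and Pbx4.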

Other observations

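Transcripts antisense to members or named for them were read as well. The 2 probes for Hoxd3os1, an antisense transcript at Hoxd3, and the probe for Dlx6os2, a transcript at the Dlx5 and Dlx6 locus, were detected on no array, with signals of 61.1 to 81.3 and 57.3 to 67.5. Pbxip1, which encodes a protein that binds Pbx factors, was detected on all 8 arrays at 172.3 to 277.7.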
